A study of Mus musculus with 4 samples.

Results

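The genes described here encode ADAM and ADAMTS metalloproteases and the related ADAMTS-like proteins of the mouse. They are the 47 protein-coding genes, of 18287 protein-coding genes and 31600 features in the deposited table, whose symbol begins with Adam and a digit or with Adamts. RNA of spermatogonial stem cells, which maintain sperm production in the testis, was sequenced in a differentiation group (2 libraries, whose genotype label reads Differentiation) and a control group (2 libraries, whose genotype label reads WT). How the differentiation group was obtained, the strain, the age and the time are not stated in the labels. The labels also do not tie replicates to separate cultures or animals, so the p-values measure only the spread between these libraries, which may be technical.

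ADAM proteins are membrane-anchored, with a metalloprotease and a disintegrin domain. Several have lost the residues needed for cleavage and act in adhesion, and many of these are made by male germ cells and carried on the sperm surface. Others shed the outer part of receptors and growth factors from cells, with ADAM10 and ADAM17 as the best known sheddases. ADAMTS proteins lack the membrane anchor, carry thrombospondin repeats and cut collagen precursors and proteoglycans of the extracellular matrix, while ADAMTS-like proteins have the repeats without a protease domain. Of the 47 genes, 11 were sperm ADAMs, 8 were widely expressed ADAMs, 3 were neural ADAMs without protease activity, 1 (Adam28) was known from epididymis and lymphoid cells, 19 were ADAMTS proteases and 5 were ADAMTS-like genes. A further 10 sperm ADAMs on the list, Adam6a, Adam6b, Adam20, Adam25, Adam26a, Adam26b, Adam29, Adam34, Adam34l and Adam39, and the epididymal Adam7, were absent from the deposited table under these symbols. Their levels are therefore not known here.

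Values are FPKM (fragments normalized to exon length and to the library's total), as the authors deposited them, and their steps corresponded to 17772000 to 20650200 fragments a library. Spearman's rho across features was 0.970 within each group and 0.791 to 0.797 between groups, a description across genes, which are not replicates. Markers of undifferentiated spermatogonia were detected in both groups, with 8 of 10 lower, Sall4 and Zbtb16 among them, and 1, Id4, higher in differentiation (Id4 was named after its value was seen). Their summed level was 47.0 and 47.5 FPKM in the differentiation libraries, against 144 and 147 FPKM in the control libraries. All 10 spermatocyte markers, such as Ldhc and Sycp3, were higher in differentiation. Their sum was 1120.1 and 1141 FPKM there, against 151 and 153 FPKM in control. Spag6 and Tdrd6, named after their values were seen, were under 0.5 FPKM in control and passed the 0.5 FPKM filter given below through differentiation. With no filter all 10 were also higher, against 23.9% of all 31600 features.

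Differences were tested with limma on log2(FPKM + 1) across the 23138 features whose mean reached 0.5 FPKM, and a gene is said to have risen or fallen at a Benjamini-Hochberg adjusted p under 0.05. In all features tested, 29.6% were called higher and 27.0% lower in differentiation (56.6% either way), with a median log2 difference of 0.01. Among the 14397 protein-coding features tested, the class the family belongs to, 32.5% were higher and 34.0% lower, with a median of -0.03. These shares are also the background of the marker counts above and of the list counts below. Of the 47 genes, 34 passed the filter, and of these 8 rose, 15 fell and 11 were not called. The 13 others had a mean under 0.5 FPKM. Over the whole set of 47 genes, both differentiation libraries lay above both control libraries in 15 and below them in 25, while the groups overlapped in 7. Over all deposited features these 2 arrangements made up 38.5% and 36.1%, together 74.6%, and 79.9% of the features tested were without overlap.

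Sperm ADAM genes held the highest levels of the family in differentiation, those of Adam5 and Adam2, and were low in control. Their summed level was 130.0 and 131 FPKM in the differentiation libraries, against 5.13 and 6.31 FPKM in the control libraries. Of the 11 genes, 7 rose (Adam5, Adam2, Adam32, Adam3, Adam18, Adam1b and Adam30), 3 were not called (Adam1a, Adam4 and Adam21) and 1, Adam24, lay under the filter. None fell by limma at the adjusted threshold, at an unadjusted p under 0.05 or by limma-voom. Adam5, Adam2, Adam3, Adam18 and Adam30 had a mean under 0.5 FPKM in control and passed the filter through the differentiation libraries. The share called among the tested genes therefore follows in part from the filter. With no filter the same number rose, 7 of all 11 sperm ADAMs in the deposited table, at a background of 23.9% higher and 21.0% lower of 31600 features. Every deposited feature was detected in some library, so this count too leaves out the listed sperm ADAMs that the table lacks.

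Adam2 encodes fertilin beta, the sperm surface subunit that mice need for normal sperm passage into the oviduct. It had 38.3 and 37.7 FPKM in the differentiation libraries, against 0.153 and 0.234 FPKM in the control libraries. These values rest on 1833 and 2068 fragments in differentiation and 8 and 13 in control, a ratio of 195 with a 95% counting interval of 128 to 316. The log2 difference was 5.03 (SE 0.06, limma adjusted p = 6.55e-05). Counting intervals cover counting error only, since reads without molecular identifiers are not independent molecules.

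The fertilin alpha genes, Adam1b and Adam1a, lie 15140 bases apart on chromosome 5, both on the minus strand, and 1 of them passed the test. In mice ADAM1B pairs with ADAM2 on the sperm surface, whereas ADAM1A pairs with it inside testicular germ cells. Adam1b had 4.35 and 4.38 FPKM in differentiation, against 0.831 and 0.798 FPKM in control, a log2 difference of 1.56 (SE 0.09, limma adjusted p = 5.02e-04). Adam1a had 1.497 and 2.14 FPKM in differentiation, against 1.03 and 1.19 FPKM in control, a log2 difference of 0.41 that was not called (SE 0.15, limma adjusted p = 0.0821). Both differentiation libraries were above both control libraries for Adam1a too, but they lay further apart than the control libraries did. Adam1a was called with limma-voom on fragments (log2 difference 0.68, limma adjusted p = 5.37e-04), and its limma adjusted p was 0.0540 to 0.245 under the other settings without a minimum fold change. Its annotated exons share 63.7% of their bases with Gm42878 and 24.0% with Mapkapk5 on the same strand, so fragments of these genes may not have been separated. In differentiation, Adam2 at 38.0 ± 0.416 FPKM stood above both fertilin alpha genes, with Adam1b at 4.37 ± 0.0248 and Adam1a at 1.82 ± 0.451 FPKM (SD, n = 2 each).

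The promoter windows of the fertilin alpha pair are shown with those of Adamts1, the member with the lowest log2 difference of FPKM + 1, and Adam10, a widely expressed gene whose level did not pass the test, because they differ in CpG content. Windows run from 250 bases before to 50 after the annotated start, from RefSeq on GRCm38.p6, and capitals mark each CpG. Adam1b is at chr5:121503386-121503685 and Adam1a at chr5:121521646-121521945, Adamts1 is at chr16:85803064-85803363, all on the minus strand, and Adam10 is at chr9:70678732-70679031 on the plus strand.
Adam1b: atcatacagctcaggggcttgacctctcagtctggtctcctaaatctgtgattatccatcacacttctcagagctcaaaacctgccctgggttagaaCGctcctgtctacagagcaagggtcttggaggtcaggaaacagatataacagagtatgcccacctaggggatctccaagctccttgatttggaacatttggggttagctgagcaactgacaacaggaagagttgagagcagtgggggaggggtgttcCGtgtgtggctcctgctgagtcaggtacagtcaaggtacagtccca
Adam1a: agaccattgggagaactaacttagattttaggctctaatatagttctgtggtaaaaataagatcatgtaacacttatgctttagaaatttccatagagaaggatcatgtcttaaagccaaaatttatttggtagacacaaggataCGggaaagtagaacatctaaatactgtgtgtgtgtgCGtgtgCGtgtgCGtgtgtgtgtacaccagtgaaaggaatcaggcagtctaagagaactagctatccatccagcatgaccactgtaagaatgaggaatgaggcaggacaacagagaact
Adamts1: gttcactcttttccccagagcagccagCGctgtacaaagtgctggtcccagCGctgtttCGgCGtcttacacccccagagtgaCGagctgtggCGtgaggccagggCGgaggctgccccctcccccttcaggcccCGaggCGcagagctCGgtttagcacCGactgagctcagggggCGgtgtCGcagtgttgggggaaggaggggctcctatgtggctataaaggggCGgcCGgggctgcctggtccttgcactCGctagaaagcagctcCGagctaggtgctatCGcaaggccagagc
Adam10: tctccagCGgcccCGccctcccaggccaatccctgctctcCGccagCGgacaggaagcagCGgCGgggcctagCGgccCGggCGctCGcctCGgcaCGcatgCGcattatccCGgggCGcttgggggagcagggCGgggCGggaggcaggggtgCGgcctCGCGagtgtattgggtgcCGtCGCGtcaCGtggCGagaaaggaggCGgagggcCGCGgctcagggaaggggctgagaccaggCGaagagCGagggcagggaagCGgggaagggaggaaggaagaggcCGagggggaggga
The windows of Adam1b and Adam1a held 2 and 4 CpGs, that of Adamts1 held 18 and that of Adam10 held 32. RefSeq windows were at hand for 24 of the 47 genes, 26 windows in all, with 1 window for every gene but Adam19, which had 3. The only other sperm ADAM among them, Adam21, had 0 CpGs, so the 3 sperm ADAM windows held 0 to 4. The 7 windows of widely expressed ADAMs held 5 to 32 CpGs (median 11) and the 10 windows of ADAMTS proteases held 2 to 44 (median 23.5). The median of 11 leans on the 3 Adam19 windows, with 5, 11 and 5 CpGs. Those of Adam8, Adam15, Adam17 and Adam10 held 6, 25, 30 and 32. The median over all 32851 windows was 7, with quartiles of 3 and 20. Low CpG number was thus shared by the 3 sperm ADAM windows at hand, although Adam1a and Adam21 did not pass the test and Adam1b did. It was not particular to them, since Adamts13 had 2 CpGs and Adam8 had 6, and Adam1a lay above the lower quartile of all windows. The windows of Adam5, Adam2, Adam32, Adam3, Adam18 and Adam30, which rose, were not at hand.

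Letters of binding motifs were searched on both strands of the same windows, as a description and not as sites. The MYB motif AACNGTT was in 0 of the 26 windows and in 4.45% of all windows. The CRE core TGACG, which the cyclic AMP response factors read, was in 6 of 26 (23.1%), and in 20.8% of all. Adam10 and Adamts1 were among those 6, with Adamts3, Adamts9, Adamts12 and Adamtsl3. The AP-1 motif TGANTCA was in 2 of 26 (7.69%), in Adam1b and 1 window of Adam19, and in 7.81% of all. The TATA motif TATAAA was in Adamts1 and Adamtsl2 (7.69%) and in 13.6% of all, and GTTGCC, a core read by RFX factors, was in 1 window of Adam19 (3.85%) and in 12.5% of all.

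On GRCm38 chromosome 8, GENCODE M21 places 4 sperm ADAMs in a row on the minus strand, from 24602246 to 24948804, in the order Adam18, Adam3, Adam5 and Adam32, with the widely expressed Adam9 next to them at 24949611 to 25016927. Adam5, a sperm ADAM also called tMDC II, had 39.4 and 38.7 FPKM in differentiation, against 0.0821 and 0.201 FPKM in control. It had the largest log2 difference of the 34 tested genes, 5.14 (SE 0.07, limma adjusted p = 7.72e-05), and a fragment ratio of 272 (95% counting interval 172 to 460) on 5 and 13 control fragments. Adam3, or cyritestin, a sperm surface protein that mice need for sperm entry into the oviduct, had 14.2 and 14.4 FPKM in differentiation, against 0.0349 and 0.148 FPKM in control. Its control values rest on 2 and 9 fragments, and the fragment ratio was 154 (95% counting interval 85.6 to 308). Adam3 and Adam18 are thus genes whose control level is close to the counting limit.

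Adam18, also called tMDC III, had 7.89 and 7.68 FPKM in differentiation, against 0.0435 and 0.103 FPKM in control, on 2 and 5 control fragments. Its log2 difference was 3.03, and that of Adam3 was 3.81 (limma adjusted p = 1.61e-04 and 1.16e-04). Adam32, another testis gene, had 18.2 and 19.9 FPKM in differentiation, against 0.567 and 0.663 FPKM in control, a log2 difference of 3.63 (SE 0.08, limma adjusted p = 1.06e-04). Of the 4 genes in the row it had the highest control level. Adam9, a widely expressed protease separated from Adam32 by 806 bases, had 21.8 and 20.1 FPKM in differentiation, against 23.1 and 24.0 FPKM in control. Its log2 difference of -0.16 was not called (limma adjusted p = 0.0562).

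The groups did not overlap for Adam9 either. The call was made with limma-voom on fragments, median centring, quantile normalization and without differentiation replicate 1 (limma adjusted p = 1.73e-03, 0.0186, 8.93e-03 and 0.0493). Beyond Adam9, Tm2d2 rose, with 17.0 ± 0.668 FPKM in differentiation and 10.9 ± 0.0899 FPKM in control (SD, n = 2 each, limma adjusted p = 1.03e-03). The flanking genes Ido1 and Htra4 were under the filter at 0.175 and 0.215 FPKM in differentiation and 0.112 and 0.196 FPKM in control, as group means. Ido1, Tm2d2 and Htra4 were chosen for their position.

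**Figure D1:**
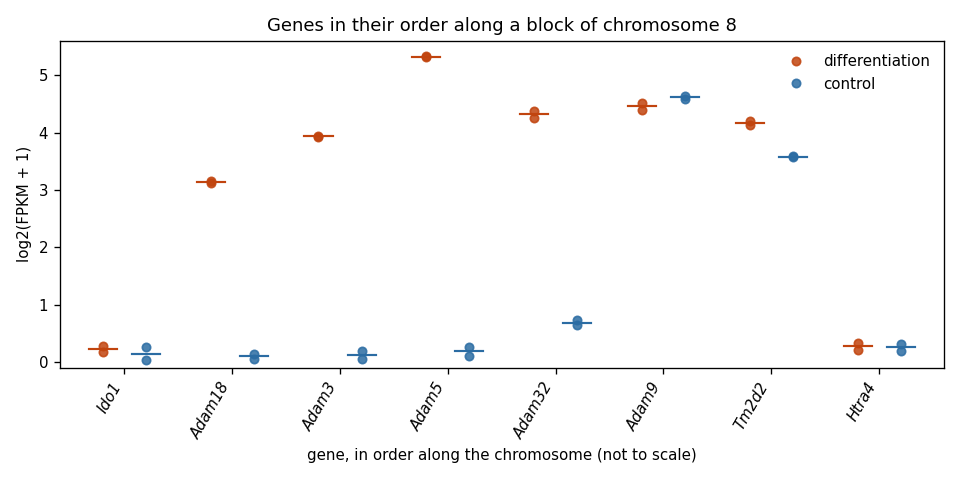
Level of 8 genes in their order along chromosome 8 (horizontal axis, not to scale), as log2(FPKM + 1), with a point for each library and a line at the group mean. Adam18, Adam3, Adam5 and Adam32 lie far higher in differentiation (7.68 to 39.4 FPKM) than in control (0.0349 to 0.663 FPKM), while Adam9 lies at 20.1 to 24.0 FPKM over both groups.

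Adam30, a testis gene on chromosome 3, had 3.08 and 3.28 FPKM in differentiation, against 0.437 and 0.521 FPKM in control, a log2 difference of 1.499 (SE 0.10, limma adjusted p = 7.64e-04). Adam4 and Adam21, testis genes 136637 bases apart on chromosome 12, had small differences that were not called. Adam4 had 2.18 and 1.96 FPKM in differentiation, against 1.31 and 1.84 FPKM in control, and was the sperm ADAM with the highest control level. Its log2 difference was 0.26 (limma adjusted p = 0.183). Adam21 had 0.870 and 0.894 FPKM in differentiation, against 0.565 and 0.582 FPKM in control (log2 difference 0.26, limma adjusted p = 0.0745), and was called without the intensity trend (limma adjusted p = 0.0219). Adam24, whose product acts on mouse sperm against fertilization by several sperm, had 3 and 5 fragments in differentiation and 4 and 2 in control, too few to compare.

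**Figure D2:**
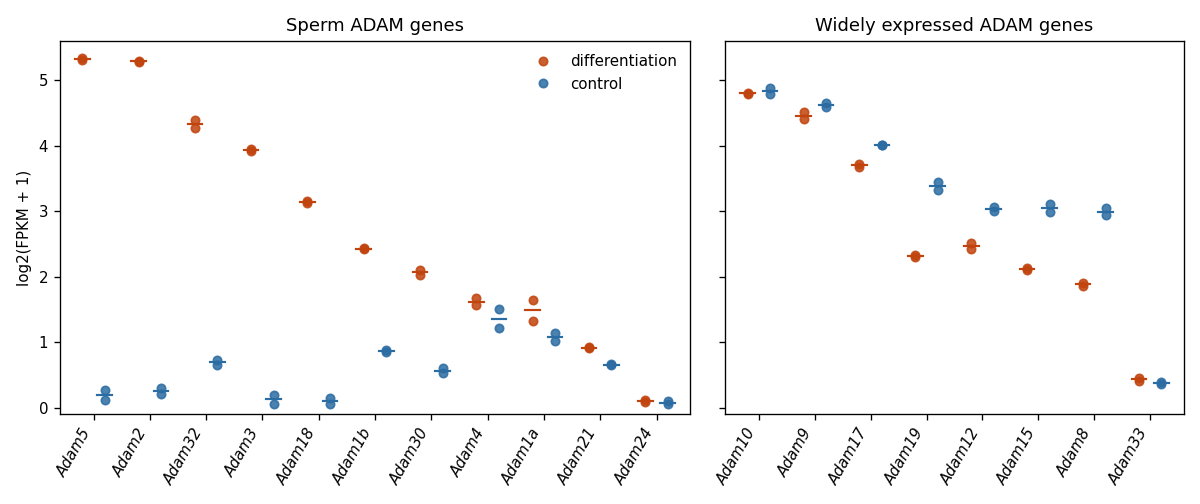
Level of the 11 sperm ADAM genes and the 8 widely expressed ADAM genes as log2(FPKM + 1), with a point for each library and a line at the group mean. Adam5 and Adam2 lie above Adam10 in differentiation and near 0 in control, whereas Adam17, Adam19, Adam12, Adam15 and Adam8 lie lower in differentiation than in control.

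The proteins that sperm ADAMs need on their way to the cell surface were read from a list of 14 genes, of which 13 were in the table and 12 were tested. Of these 8 rose and 2 fell, with a median log2 difference of 1.73. Of all features tested 29.6% rose and 27.0% fell, and of protein-coding ones 32.5% and 34.0%. Cmtm2a and Cmtm2b, named after their values were seen, were under 0.5 FPKM in control and passed the filter through differentiation. With no filter, 8 of the 13 rose and 1 fell, with a median of 1.62, against 23.9% and 21.0% of all 31600 features. Clgn encodes calmegin, the chaperone of the endoplasmic reticulum that mouse ADAM1A, ADAM2 and ADAM3 depend on. It had 59.3 and 60.2 FPKM in differentiation, against 1.90 and 2.44 FPKM in control (log2 difference 4.26, limma adjusted p = 1.06e-04). Tex101 and Ly6k encode partner proteins of germ cell membranes needed for mature ADAM3 in mice. Tex101 was high in both groups, with 254 and 260 FPKM in differentiation, against 72.3 and 70.1 FPKM in control (log2 difference 1.84, limma adjusted p = 8.85e-05).

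Ly6k had 42.8 and 45.1 FPKM in differentiation, against 5.70 and 5.37 FPKM in control, and Lypd4, a gene of the same protein family, had 22.0 and 23.2 FPKM, against 0.890 and 0.839 FPKM (log2 differences 2.78 and 3.66, limma adjusted p = 8.85e-05 for both). The 2 genes that fell were Tpst2, a protein tyrosine sulfotransferase, and Ace, angiotensin converting enzyme, with log2 differences of -0.49 and -0.23 (limma adjusted p = 4.39e-03 and 0.0474), named after their values were seen. The call on Ace was lost with no filter and without any 1 of the 4 libraries (limma adjusted p = 0.0608 and 0.135 to 0.183). Pdilt, the testis partner chaperone of mouse ADAM3, lay under the filter at 0.123 and 0.0431 FPKM in differentiation, against 0.0225 and 0.0212 FPKM in control, and was likewise named after its values were seen. Calr3, another chaperone gene of the list, also named after its values were seen, was not called (limma adjusted p = 0.111). It had 2.15 and 2.15 FPKM in differentiation, against 1.34 and 1.80 FPKM in control. Of these chaperone genes, Clgn was thus abundant in differentiation, and Calr3 and Pdilt were not.

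Markers of later germ cells moved with the sperm ADAMs only in part. Of 11 deposited markers of round and elongating spermatids, 8 were tested, and 4 rose (Acr, Tnp2, Prm1 and Spaca1) and 0 fell, with a median log2 difference of 0.33. Acr, Tnp2 and Prm1 were under 0.5 FPKM in control and passed the filter through differentiation, and over all 11 markers with no filter the median was 0.14. At an unadjusted p under 0.05 limma had 1 lower, Izumo1, a sperm protein of egg fusion (adjusted p = 0.0526), and limma-voom called it lower. The summed level of the 11 markers was 22.5 FPKM in each differentiation library, against 11.6 and 9.37 FPKM in control. Acr, the acrosomal protease, made up 9.05 and 9.80 FPKM of the sum in differentiation, against 0.410 and 0.290 FPKM in control. Gapdhs, the second most abundant of these markers, was not called, and the others were named after their values were seen. Without differentiation replicate 1 the number that rose was 1 and without differentiation replicate 2 it was 2. The call on Spaca1 was lost without any 1 of the 4 libraries and under the replicate block (limma adjusted p = 0.0596 to 0.123 and 0.0606). In bulk RNA, more cells of a type and more RNA per cell cannot be told apart. The part of cell composition in the sperm ADAM values was not tested.

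The widely expressed ADAMs moved the other way or did not pass the test. Of the 8 genes 5 fell (Adam17, Adam12, Adam15, Adam19 and Adam8), 2 were not called (Adam10 and Adam9) and Adam33 lay under the filter. Of all features tested 27.0% fell, and of protein-coding ones 34.0%. With a minimum fold change of 1.5, 3 of the class fell, and the calls on Adam17 and Adam12 were lost. The summed level of the 8 genes was 75.8 and 73.4 FPKM in differentiation, against 97.3 and 97.1 FPKM in control. None rose by limma at the adjusted threshold, at an unadjusted p under 0.05 or by limma-voom. Adam10, the sheddase that opens Notch receptors to signalling, had the highest level of the class, with 27.0 and 26.6 FPKM in differentiation, against 28.3 and 26.5 FPKM in control. Its groups overlapped, and the log2 difference was -0.03 (SE 0.04, limma adjusted p = 0.590). It was called lower after quantile normalization (-0.17, limma adjusted p = 0.0327), and without control replicate 1 its sign turned (0.018, limma adjusted p = 0.753).

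Adam17, which releases TNF and ligands of the EGF receptor, fell to 11.8 and 12.2 FPKM in differentiation, against 15.1 FPKM in each control library (log2 difference -0.31, SE 0.04, limma adjusted p = 4.00e-03). Larger falls were seen in the genes of lower level. Adam19, or meltrin beta, which acts in heart and nerve development, had 4.02 and 3.90 FPKM in differentiation, against 8.98 and 9.88 FPKM in control (log2 difference -1.07, limma adjusted p = 7.16e-04). Adam15, known from endothelial and epithelial cells, had 3.40 and 3.28 FPKM in differentiation, against 6.93 and 7.65 FPKM in control (log2 difference -0.93, limma adjusted p = 1.24e-03). Its exons share 20.6% of their bases with the antisense gene 4731419I09Rik, and whether reads were counted by strand is not given.

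Adam12, or meltrin alpha, a gene of muscle and connective tissue, had 4.71 and 4.35 FPKM in differentiation, against 7.39 and 7.02 FPKM in control (log2 difference -0.57, limma adjusted p = 3.44e-03). Adam8, best known from leukocytes, had 2.75 and 2.63 FPKM in differentiation, against 7.25 and 6.66 FPKM in control (log2 difference -1.11, limma adjusted p = 8.07e-04), the lowest log2 difference of the class. Of 8 macrophage and leukocyte markers 7 were tested and 6 fell, Lyz2 and Cd68 among them, while none rose by limma at the adjusted threshold, at an unadjusted p under 0.05 or by limma-voom, and their sum was 17.9 and 17.0 FPKM in differentiation, against 63.2 and 59.4 FPKM in control. Adgre1, named after its values were seen, was under 0.5 FPKM in differentiation and passed the filter through control. With no filter 7 of the 8 markers fell, against 21.0% of all 31600 features. The part of leukocytes in the Adam8 value was not tested. Adam33, a gene of mesenchymal cells, had 0.323 and 0.373 FPKM in differentiation, against 0.286 and 0.314 FPKM in control.

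The neural ADAMs, adhesion receptors without protease activity that bind LGI proteins in brain, were low. Adam23 fell to 0.610 and 0.579 FPKM in differentiation, against 1.10 and 1.12 FPKM in control (log2 difference -0.40, limma adjusted p = 0.0231). That call was lost without control replicate 1 or 2 and without differentiation replicate 1 or 2, with limma adjusted p = 0.0931, 0.0989, 0.0687 and 0.0806, and under the replicate block (0.0545). Adam11 had 1.10 and 1.01 FPKM in differentiation, against 1.37 and 1.24 FPKM in control, and was not called (limma adjusted p = 0.225). Adam22, under the filter, had 0.290 and 0.288 FPKM in differentiation, against 0.537 and 0.516 FPKM in control. Adam28 had 1 and 5 fragments in differentiation and 5 and 10 in control.

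Cofactors and inhibitors of the sheddases ADAM10 and ADAM17 gave 8 lower and 1 higher gene among 12 tested, with a median log2 difference of -0.38. Over all features tested 27.0% were lower and 29.6% higher, and over protein-coding ones 34.0% and 32.5%. Tspan15, named after its values were seen, was under 0.5 FPKM in differentiation and passed the filter through control. With no filter 8 of the 13 were lower and 1 higher, with a median of -0.36, against 21.0% and 23.9% of all 31600 features. Timp3, the matrix-bound inhibitor of ADAM17 and of ADAMTS proteases, had 13.2 and 13.1 FPKM in differentiation, against 22.3 and 21.9 FPKM in control (log2 difference -0.71, limma adjusted p = 3.65e-04). Tspan14, one of the tetraspanins that carry ADAM10 to the membrane, had 7.37 and 6.56 FPKM in differentiation, against 16.1 and 16.2 FPKM in control (log2 difference -1.11, limma adjusted p = 5.65e-04). Rhbdf1, an iRhom that carries ADAM17, fell as well (log2 difference -0.75, limma adjusted p = 1.14e-03). The member that rose was another tetraspanin of this kind, Tspan17, with 4.24 and 4.36 FPKM in differentiation, against 2.02 and 2.13 FPKM in control. Without control replicate 2 or differentiation replicate 1 the number that fell was 5, and with a minimum fold change of 1.5 it was 1, with 0 higher.

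Of 20 known substrates of these sheddases 18 were tested and 14 fell (6 with a minimum fold change of 1.5), with a median log2 difference of -0.61. Of all features tested 27.0% fell, and of protein-coding ones 34.0%. None of the 18 rose by limma at the adjusted threshold, at an unadjusted p under 0.05 or by limma-voom. The growth factor receptor Kit had 7.73 and 7.65 FPKM in differentiation, against 30.4 and 31.6 FPKM in control (log2 difference -1.88, limma adjusted p = 9.76e-05). The adhesion receptor Cd44, the EGF receptor ligand Ereg and the receptor Notch2 had log2 differences of -0.80, -0.90 and -0.60 (limma adjusted p = 3.28e-04, 6.44e-04 and 6.62e-04). Proprotein convertases, which remove the inhibitory prodomain of many ADAM and ADAMTS proteins, went both ways among 4 tested genes. Pcsk7 rose, Furin and Pcsk5 fell and Pcsk6 was not called, with log2 differences of 0.63, -0.40, -1.07 and -0.05. The limma adjusted p was 2.20e-03, 6.17e-03, 5.48e-03 and 0.802 in the same order. With a minimum fold change of 1.5 the calls on Pcsk7, Furin and Pcsk5 were lost. Furin had 12.1 and 12.0 FPKM in differentiation, against 15.5 and 17.1 FPKM in control.

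Of the 19 ADAMTS protease genes 13 were tested, and 8 fell at a background of 27.0% (Adamts1, Adamts5, Adamts19, Adamts10, Adamts2, Adamts7, Adamts14 and Adamts12), 1 rose (Adamts4) and 4 were not called (Adamts9, Adamts6, Adamts3 and Adamts17). Adamts19 and Adamts12 were under 0.5 FPKM in differentiation and passed the filter through the control libraries, so this share follows in part from the filter. With no filter, 9 of all 19 fell and 1 rose, at a background of 21.0% lower and 23.9% higher of 31600 features. The summed level of the 19 genes was 33.3 and 33.7 FPKM in differentiation, against 59.2 and 61.0 FPKM in control. Adamts1, which cuts the proteoglycans versican and aggrecan and acts in ovulation, had the highest control level of the class. It had 4.83 and 4.93 FPKM in differentiation, against 18.0 and 19.4 FPKM in control, on 455 to 2125 fragments a library. The log2 difference was -1.74 (SE 0.06, limma adjusted p = 1.76e-04). On the log2(FPKM + 1) scale this was the lowest of the family, whereas the ratio of mean FPKM, control over differentiation, was 3.83 for Adamts1, 5.26 for Adamts5 and 4.59 for Adamts19.

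Adamts5, the main aggrecanase of mouse cartilage, lies 53059 bases from Adamts1 on chromosome 16, on the same strand. It had 0.723 and 0.674 FPKM in differentiation, against 3.43 and 3.91 FPKM in control (log2 difference -1.46, SE 0.10, limma adjusted p = 9.39e-04). Both neighbours fell. Adamts4, the other known aggrecanase, went the opposite way, with 2.41 and 2.81 FPKM in differentiation, against 1.16 and 1.33 FPKM in control (log2 difference 0.68, SE 0.11, limma adjusted p = 8.54e-03). It was the only ADAMTS gene that rose by limma.

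The procollagen N-proteinases, which trim the amino end of fibrillar procollagens, split. Adamts2 had 3.22 and 3.48 FPKM in differentiation, against 6.29 and 5.99 FPKM in control (log2 difference -0.71, limma adjusted p = 2.22e-03). Adamts14 had 2.52 and 2.67 FPKM in differentiation, against 4.30 and 3.91 FPKM in control (log2 difference -0.50, limma adjusted p = 9.44e-03), a call that was lost without control replicate 1 or differentiation replicate 1 (limma adjusted p = 0.0557 and 0.0564). Adamts3, which also matures the lymphatic growth factor VEGF-C, had 1.08 and 1.28 FPKM in differentiation, against 1.00 and 0.981 FPKM in control, and was not called (limma adjusted p = 0.341).

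Among the genes linked to fibrillin microfibrils, Adamts10 had 2.70 and 2.82 FPKM in differentiation, against 6.27 and 6.47 FPKM in control (log2 difference -0.97, limma adjusted p = 8.55e-04). Its paralog Adamts6 had 4.81 and 5.07 FPKM in differentiation, against 5.07 and 5.24 FPKM in control, with no call (log2 difference -0.05, limma adjusted p = 0.518). Adamts17 was not called either, with 0.688 and 0.481 FPKM in differentiation, against 0.893 and 0.811 FPKM in control (limma adjusted p = 0.162), although limma-voom on fragments called it lower (limma adjusted p = 6.76e-03). Of these 3 genes, Adamts10 was thus the one called by limma on FPKM.

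Adamts7 and Adamts12, which cut cartilage oligomeric matrix protein, both fell. Adamts7 had 1.97 and 1.54 FPKM in differentiation, against 3.07 and 2.99 FPKM in control (log2 difference -0.55, limma adjusted p = 0.0174). Adamts12 had 0.407 and 0.436 FPKM in differentiation, against 0.894 and 0.980 FPKM in control (log2 difference -0.45, limma adjusted p = 0.0186). The call on Adamts7 was lost without control replicate 1, control replicate 2 or differentiation replicate 2 (limma adjusted p = 0.0796, 0.0708 and 0.0599), and held without differentiation replicate 1 (0.0320). The call on Adamts12 was lost without any 1 of the 4 libraries (limma adjusted p = 0.0626 to 0.0896). Without control replicate 1, 5 ADAMTS proteases in all fell instead of 8.

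Adamts9, the relative of the nematode gene gon-1 that shapes the gonad in that species, had the highest level of the class in differentiation. It had 6.53 and 5.98 FPKM there, against 5.93 and 6.11 FPKM in control, and the groups overlapped (log2 difference 0.05, SE 0.07, limma adjusted p = 0.578). Its sign turned after median centring (-0.028) and quantile normalization (-0.052) and without differentiation replicate 1 (-0.0086), none of which was called. Adamts19, a gene on chromosome 18 known from gonad and heart valves, fell to 0.374 and 0.421 FPKM in differentiation, against 1.84 and 1.81 FPKM in control (log2 difference -1.01, SE 0.09, limma adjusted p = 1.86e-03). In control the ADAMTS genes therefore ranked with Adamts1 at the top, at 18.7 ± 1.02 FPKM, above Adamts10 and Adamts2, at 6.37 ± 0.147 and 6.14 ± 0.216 FPKM, and Adamts9, at 6.02 ± 0.132 FPKM (SD, n = 2 each). The library values of Adamts10 overlapped those of Adamts2, and those of Adamts2 overlapped those of Adamts9.

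The other 6 ADAMTS genes, Adamts8, Adamts20, Adamts13, Adamts15, Adamts18 and Adamts16, had group means of 0.418 FPKM or less. Adamts20, which acts in pigment cell survival, had 0.150 and 0.158 FPKM in differentiation, against 0.348 and 0.425 FPKM in control, on 24 to 79 fragments. With no filter it was called lower (limma adjusted p = 0.0314). Adamts16, known from kidney and gonad, had 0 and 2 fragments in differentiation and 9 and 7 in control, a ratio of 0.131 with a 95% counting interval of 0.0147 to 0.559. Adamts8 had 38 and 35 fragments in differentiation and 29 and 19 in control, and for Adamts13, which cuts von Willebrand factor, Adamts15 and Adamts18 the groups overlapped.

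**Figure D3:**
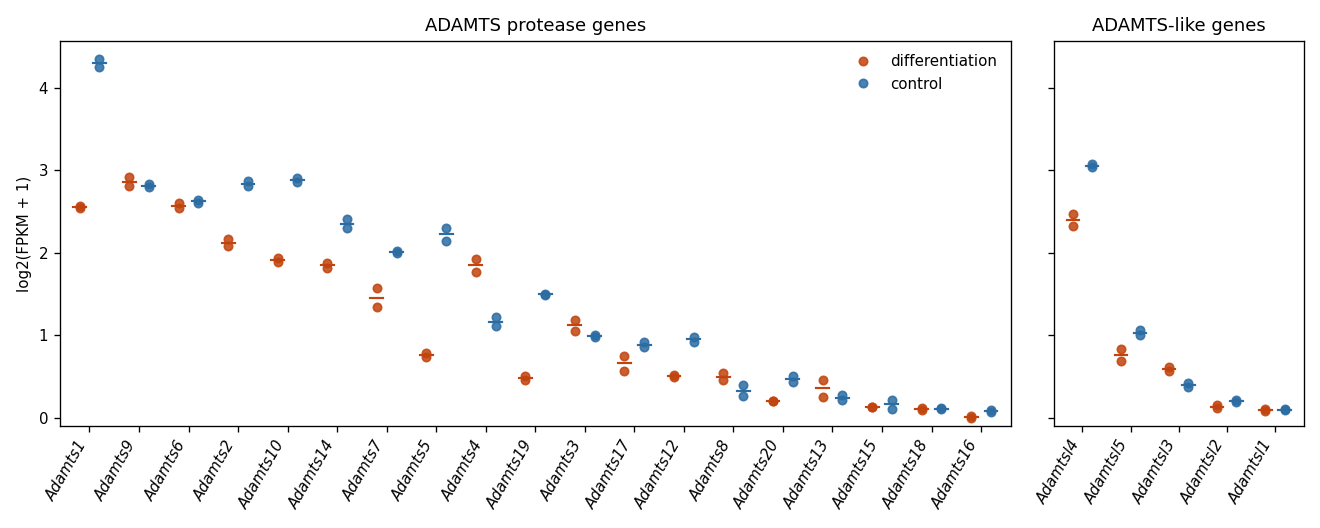
Level of the 19 ADAMTS protease genes and the 5 ADAMTS-like genes as log2(FPKM + 1), with a point for each library and a line at the group mean. Adamts1 has the widest gap, with differentiation below control, and Adamts4 is the tested protease gene that lies clearly above it.

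ADAMTS-like genes had 1 fall among 2 tested. Adamtsl4, a microfibril-associated protein of the eye, had 3.99 and 4.56 FPKM in differentiation, against 7.21 and 7.43 FPKM in control (log2 difference -0.66, SE 0.08, limma adjusted p = 3.52e-03). Adamtsl5 had 0.620 and 0.780 FPKM in differentiation, against 1.09 and 1.01 FPKM in control, and was not called (limma adjusted p = 0.0938), though it was with limma-voom and without the intensity trend (limma adjusted p = 0.0139 and 0.0490). Adamtsl3, under the filter, was higher in both differentiation libraries, at 0.487 and 0.533 FPKM, against 0.299 and 0.338 FPKM in control. Adamtsl2 and Adamtsl1 were at 0.0993 and 0.0724 FPKM in differentiation and 0.153 and 0.0724 FPKM in control, as group means.

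Substrates of ADAMTS proteases fell in 12 of 14 tested genes, with a median log2 difference of -1.05. Of all features tested 27.0% fell, and of protein-coding ones 34.0%. Bcan, which fell, had a mean under 0.5 FPKM in differentiation and passed the filter through control. With no filter 11 of the 15 fell and 1 rose, with a median of -0.94, against 21.0% and 23.9% of all 31600 features. Among those that fell, the calls on Acan, Bcan, Ncan and Fbn2 were lost with a minimum fold change of 1.5. The call on Ncan was also lost with no filter and under the replicate block (limma adjusted p = 0.0574 and 0.0784). It was lost too without any 1 of the 4 libraries (log2 differences -0.37 to -0.32). The call on Acan was lost without either control replicate or differentiation replicate 2 (-0.58 to -0.43). That on Bcan was lost without either control replicate or differentiation replicate 1 (-0.63 to -0.47). These genes were named after their values were seen. So was the gene that rose, the cartilage collagen Col2a1 (log2 difference 0.47, limma adjusted p = 0.0215). Its call was lost without any 1 of the 4 libraries (limma adjusted p = 0.0523 to 0.0996). The fibrillar collagens Col3a1, Col1a1 and Col5a1 and the microfibril protein Fbn1 had log2 differences of -2.17, -1.84, -1.51 and -2.08 (limma adjusted p = 1.19e-04, 1.40e-04, 1.82e-04 and 1.76e-04). Col3a1 had 5.55 and 5.06 FPKM in differentiation, against 27.3 and 27.5 FPKM in control.

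Markers of fibroblasts and peritubular cells, which make much of the matrix around the tubules, numbered 12 and all were tested. Of these 11 fell, among them Col1a1 and the muscle actin gene Acta2, with a median log2 difference of -1.19, and their sum was 88.5 and 81.9 FPKM in differentiation, against 249 FPKM in each control library. Lum and Postn, named after their values were seen, were under 0.5 FPKM in differentiation and passed the filter through control. With no filter 11 of the 12 also fell, against 21.0% of all 31600 features. The list shares Col1a1, Col1a2 and Col3a1 with the ADAMTS substrates. The part of fibroblasts and peritubular cells in the ADAMTS values was not tested. Of 8 tested Sertoli cell markers 3 rose (Wt1, Cldn11 and Clu) and 3 fell (Inha, Amh and Gata4), and of 4 tested Leydig cell markers 1 rose (Star) and 2 fell (Hsd3b1 and Cyp11a1). The Sertoli sum was 167 and 155 FPKM in differentiation, against 152 and 156 FPKM in control, and the Leydig sum was 21.3 and 20.9 FPKM, against 37.1 and 38.2 FPKM. Of 4 tested endothelial markers 1, Cdh5, fell, while Tek, the second by level, was not called, and the sum was 7.32 and 7.50 FPKM in differentiation, against 12.7 and 12.5 FPKM in control. These named markers were chosen after their values were seen, apart from Clu, Cldn11, Star, Cyp11a1, Cdh5 and Tek.

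**Figure D4:**
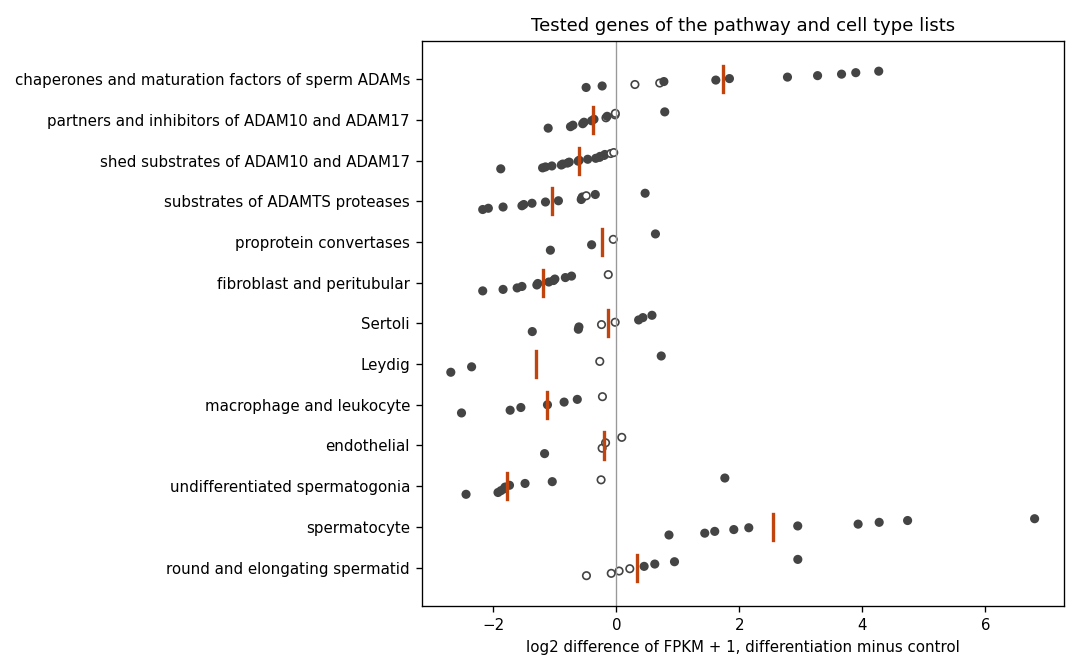
Log2 difference of FPKM + 1, differentiation minus control, for each tested gene of the pathway and cell type lists, filled where the limma adjusted p is under 0.05, with a bar at the list median. Maturation factors of sperm ADAMs (median 1.73) and spermatocyte markers (median 2.55) lie to the right, and ADAMTS substrates (median -1.05) and fibroblast markers (median -1.19) to the left.

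Set side by side, the tested sperm ADAMs had log2 differences of 0.26 to 5.14, the tested widely expressed ADAMs of -1.11 to -0.03 and the tested ADAMTS proteases of -1.74 to 0.68. The class medians over tested genes were 2.30, -0.57 and -0.50, against 0.01 over all features tested. With no filter, over all 11, 8 and 19 genes of these classes, they were 1.56, -0.44 and -0.23, against 0.01 over all 31600 features. In differentiation the 3 genes of highest level were Adam5, Adam2 and Adam10, at 39.1 ± 0.485, 38.0 ± 0.416 and 26.8 ± 0.333 FPKM. In control they were Adam10, Adam9 and Adamts1, at 27.4 ± 1.33, 23.6 ± 0.632 and 18.7 ± 1.02 FPKM (SD, n = 2 each). The family's summed level was 246 FPKM in each differentiation library, against 174 and 176 FPKM in control.

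**Figure D5:**
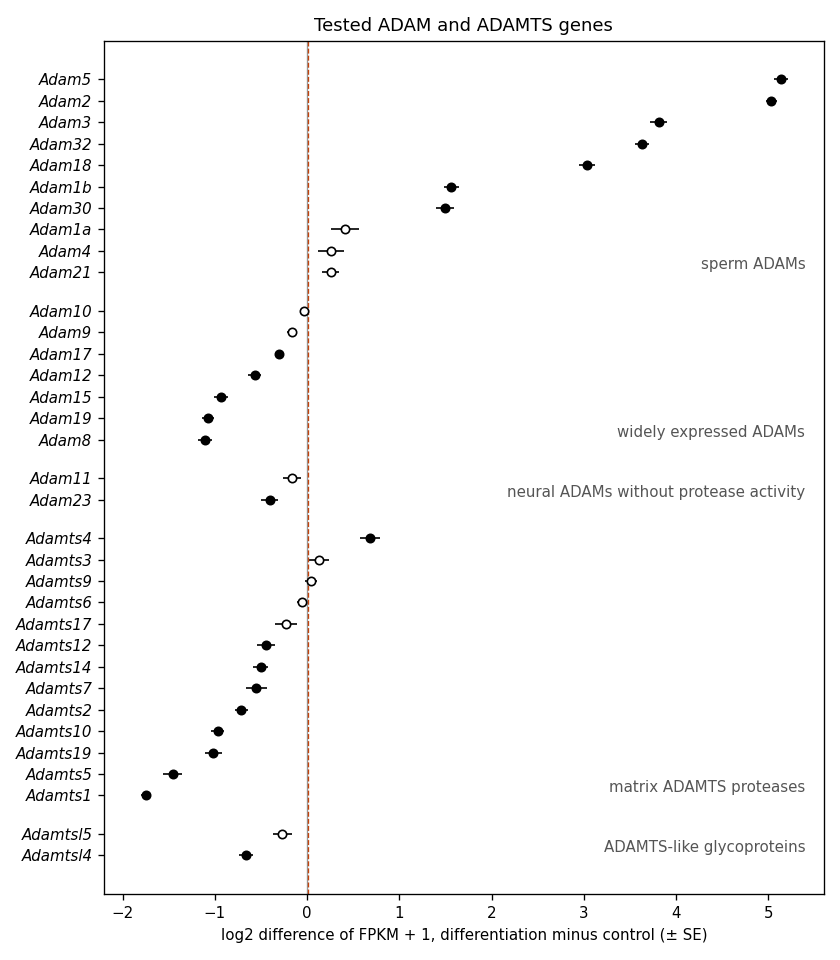
Log2 difference of FPKM + 1, differentiation minus control, with its SE, for the 34 tested ADAM and ADAMTS genes by class. Filled points have a limma adjusted p under 0.05, open points do not, the solid line is at 0 and the dashed line is the median of all features tested, 0.01.

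The authors' deposited table, whose test is not stated in the labels, called 9 of the 47 genes higher and 18 lower at an adjusted p under 0.05. Over all its features, 22.0% were higher and 20.3% lower. It included all 8 genes that rose and all 15 that fell here. The 4 further genes in the authors' deposited table were Adam1a, higher (adjusted p = 0.0193), and Adam9, Adam22 and Adamts20, lower (adjusted p = 0.0180, 7.82e-04 and 1.40e-03). Both tests used the same libraries.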

How the data were processed

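Gene-level FPKM values were deposited by the authors for 2 differentiation and 2 control libraries. HISAT2 and GRCm38 are named per the submitters' processing notes, while the counting tool, the annotation and strand handling were not given in the sources used here. Log2 fold changes and p-values of the authors' own comparison were also deposited and are reported only as theirs. The circular RNA data were not analysed here.

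Low FPKM values were whole multiples of 1 fragment: with GENCODE M21 exon lengths (31536 of 31600 features matched), 96.2% of values under 300 fragments lay within 0.05 of a whole number. Intervals are exact 95% counting intervals on these fragments. limma 3.58.1 in R 4.3.3 was fitted with an intensity trend to log2(FPKM + 1) of the 4 libraries, with group as the only term, on features whose mean reached 0.5 FPKM, leaving 2 residual degrees of freedom. The pseudocount of 1 makes differences of low genes smaller on the log2(FPKM + 1) scale. P-values were adjusted by the Benjamini-Hochberg method over all features tested. Alternatives were pseudocount 0.1, no filter, a minimum of 2 FPKM, a minimum fold change of 1.5, no trend, median centring, quantile normalization, a replicate block, each library left out and, chosen after seeing the data, limma-voom on fragments. The labels do not say whether the replicate numbers pair the libraries.

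Members of at least 0.5 FPKM are named with values, as are the 4 genes of smallest p in each pathway list and the 2 of highest level in each cell type list, unless stated otherwise. Members and lists were chosen with earlier results of these data known. Promoters were read with Python 3.11.15 and pandas 2.3.3.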

Additional observations from a re-analysis of the deposited data

How the results depend on the processing

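With 2 libraries a group, 2 residual degrees of freedom and FPKM as the only deposited level, small changes and genes of low level are limited by the spread estimate and by counting error. Over the 34 tested genes and the alternatives, 393 values kept their direction and their side of the threshold, 23 lost the call, 10 gained one and 4 reversed; the cause was not tested. The reversed values were those of Adamts9 (-0.0281 after median centring, -0.0517 after quantile normalization, -0.0086 without differentiation replicate 1) and Adam10 (0.0176 without control replicate 1), none of them called. Without 1 library at a time they ranged between -0.0086 and 0.1016 for Adamts9 and between -0.0783 and 0.0176 for Adam10. A minimum fold change of 1.5, a stricter test, left 2294 features higher and 1176 lower, against 6848 and 6246, and 7 of the family lower, against 15. It left 3 widely expressed ADAMs, 0 neural ADAMs, 4 ADAMTS proteases and 0 ADAMTS-like genes lower, 0 ADAMTS proteases higher, and 18 list genes higher and 36 lower, against 30 and 66. With a minimum mean of 2 FPKM, which left no neural ADAM to test, 0 neural ADAMs were lower and 0 ADAMTS proteases higher. With no filter 2 neural ADAMs were lower. With limma-voom and without the trend 2 ADAMTS-like genes were lower. Same-numbered libraries did not deviate together (correlation -0.00041 across features, with only 2 pairs). The replicate block gave 8 of the family higher and 14 lower, and 0 neural ADAMs lower; Adam23 was the member whose call was lost. Without 1 library at a time, 8 of the family were higher and 11 to 13 lower, 0 neural ADAMs were lower, and 5 to 6 ADAMTS proteases were lower. Over all features, 5011 to 5683 were then higher and 4474 to 4607 lower.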
